A study of Mus musculus with 35 samples.

Results

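Paired inhibitory and activating receptors of myeloid cells were described through 10 genes: *Lair1*, *Klra2*, *Pilra*, *Pirb*, *Lilrb4a*, *Sirpa* and *Cd300a*, which encode inhibitory receptors, *Lst1*, which encodes an inhibitory adaptor, and *Pilrb1* and *Pilrb2*, which encode activating receptors. The members were selected by symbol from the 54735 gene symbols in the count files, on their CPM (counts scaled to a common library total) across the 6 groups of samples and with earlier results of these data known. Their levels and fold changes are therefore a description: calls of a fit across all genes are counted for them, but no p-value is given and nothing is read from the calls. All 10 passed a filter of over 1 CPM in at least 5 samples, as did 13421 symbols in all. This filter used plain CPM, whereas the CPM values given below are TMM-scaled, with a normalization factor for each library.

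The 35 samples were macs sorted from livers of C57Bl/6J mice and measured by bulk RNA-seq. Mice were put on a standard diet (SD) or a Western diet (WD), rich in fat and cholesterol with fructose and sucrose in the drinking water, from 5 weeks of age, and only males entered the diet experiments, so that mice after 12 and 24 weeks of feeding also differed in age. Resident Kupffer cells (ResKCs), sorted as CLEC4F+TIM4+, gave 7 SD and 5 WD samples at 12 weeks and 6 SD and 6 WD samples at 24 weeks. From WD-fed mice at 24 weeks came 5 samples of monocyte-derived Kupffer cells (moKCs, CLEC4F+TIM4-) and 6 of CLEC4F- macs, and no SD sample of either population was analysed here. For the 5 WD samples at 12 weeks a label field gives the standard diet but title and description the WD, and they were treated as WD. The study counts animals as n for these sorts, and samples were treated as separate mice, although the labels do not name the mouse of a sample.

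Paired receptors are families in which closely related proteins on the cell surface have similar ligand-binding parts and opposite signalling tails. Inhibitory members carry immunoreceptor tyrosine-based inhibitory motifs (ITIMs), which recruit the phosphatases SHP-1 and SHP-2 after phosphorylation by Src-family kinases, whereas activating members have short tails and pair with adaptors that carry activating motifs, such as DAP12 (*Tyrobp*) and the Fc receptor gamma chain (*Fcer1g*). On macrophages such receptors read ligands such as collagens, MHC class I and CD47, and set thresholds for activation and phagocytosis. Kupffer cells, the resident macs of the liver sinusoids, express several of them.

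The genes for the inhibitory receptor PILRα (*Pilra*) and its activating partners (*Pilrb1* and *Pilrb2*) lie side by side on the minus strand of chromosome 5 (mm10), at 137821952 to 137836281, 137852147 to 137858106 and 137865827 to 137871815. The 300 bases around their RefSeq start sites (GRCm38.p6, 250 bases before to 50 after) are shown because the transcript levels of these 3 genes moved together across the samples, as given further on. The windows lie at chr5:137836229-137836528 for *Pilra*, chr5:137858000-137858299 for *Pilrb1* and chr5:137871709-137872008 for *Pilrb2*, are printed 5′ to 3′ on the minus strand, and have in capitals the bases of *Pilrb1* and *Pilrb2* without an identical partner in the aligned *Pilra* window.
Pilra: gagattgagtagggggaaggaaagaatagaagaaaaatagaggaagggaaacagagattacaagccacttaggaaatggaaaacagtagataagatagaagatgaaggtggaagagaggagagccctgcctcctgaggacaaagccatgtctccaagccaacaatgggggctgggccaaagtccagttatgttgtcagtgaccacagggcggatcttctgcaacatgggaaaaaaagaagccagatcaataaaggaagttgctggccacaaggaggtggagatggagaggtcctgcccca
Pilrb1: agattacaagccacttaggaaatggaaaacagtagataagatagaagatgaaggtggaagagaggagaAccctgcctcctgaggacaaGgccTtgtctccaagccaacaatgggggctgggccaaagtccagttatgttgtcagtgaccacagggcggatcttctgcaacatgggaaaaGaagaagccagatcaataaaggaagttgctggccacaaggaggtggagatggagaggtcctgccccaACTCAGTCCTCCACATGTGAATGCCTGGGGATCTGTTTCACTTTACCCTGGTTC
Pilrb2: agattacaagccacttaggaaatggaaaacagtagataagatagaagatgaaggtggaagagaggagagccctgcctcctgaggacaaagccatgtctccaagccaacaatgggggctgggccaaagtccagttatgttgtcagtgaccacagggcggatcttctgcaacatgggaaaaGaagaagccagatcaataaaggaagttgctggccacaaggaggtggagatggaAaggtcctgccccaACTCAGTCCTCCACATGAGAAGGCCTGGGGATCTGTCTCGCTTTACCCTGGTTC

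Over 246 aligned bases the *Pilrb1* window was identical to that of *Pilra* at 242 positions (98.4%) and the *Pilrb2* window at 244 (99.2%). The block of capitals at the end of both Pilrb windows lies past the end of the *Pilra* window. *Pilrb1* and *Pilrb2* were 97.3% identical over all 300 bases. The letters GGAAGT, the core that ETS factors bind, were searched on both strands and occurred in the windows of *Pilra*, *Pilrb1*, *Pilrb2* and *Pirb*, against 23.8% of 32851 promoter windows of the same length. The 3 Pilr windows are near copies that hold the letters in the same stretch, so that their hits are not separate occurrences. The longer form GAGGAAGT, bound by the myeloid ETS factor PU.1 and overlapping with the core, occurred in the *Pirb* window, against 3.2% of all windows. The AP-1 letters TGANTCA occurred in the *Klra2* window, against 7.81% of all. Windows were found for 7 of the 10 members, all but *Lilrb4a*, *Sirpa* and *Lst1*.

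The other members lie apart from this cluster, on chromosomes 7 (*Lair1*, 4003402 to 4063204, and *Pirb*, 3711409 to 3720391), 6 (*Klra2*, 131219223 to 131247362), 10 (*Lilrb4a*, 51490956 to 51496611), 2 (*Sirpa*, 129592835 to 129632228), 17 (*Lst1*, 35185095 to 35188439) and 11 (*Cd300a*, 114890041 to 114904654) of mm10. Reads of 75 bases can match more than one gene of such families. In *Lilrb4a*, 40.3% of the 75-base words of its transcripts also occurred in other genes, mostly in *Gm49339* (32.2%) and *Lilr4b* (16.3%), and in *Pirb* 26.9% did, including 13.2% in *Pira2*. The shares were 14.7% in *Pilra*, which has 12.2% of its words in common with *Zcwpw1*, a gene whose exons overlap its own on the opposite strand over 468 bases, 12.4% in *Pilrb1* and 11.6% in *Pilrb2*, which share 9.27% of their words with each other. They were at most 1.79% in *Cd300a*, *Lair1*, *Klra2*, *Sirpa* and *Lst1*. The exons of *Lilrb4a* also overlap those of other annotated genes, *Gm40645* and *Gm49339*, over 1846 bases on the same strand and 131 on the other. How the counting treated shared reads, overlapping exons and strand is not given in the sources used here. The values of *Lilrb4a* and *Pirb*, and to a lesser degree of the 3 Pilr genes, are therefore uncertain in how reads were split between copies or overlapping genes.

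Library totals ran from 11568590 to 15163845 counts, so that 3 counts equal 0.198 to 0.259 CPM before TMM scaling. The lowest count of any member in any sample was 249 (*Lilrb4a*). The sorted populations carried their defining markers. *Clec4f* had 7326 to 17495 CPM in the ResKC and moKC samples and 294 to 5488 CPM in CLEC4F- macs, and *Timd4* had 547 to 1358 CPM in ResKCs and 2.85 to 30.3 CPM in the other populations. The 6 Kupffer cell markers, all over the filter, summed to 1394 to 12600.4 CPM in CLEC4F- macs and 17396 to 36520.4 CPM in the other groups, and the 4 monocyte markers to 344 to 1334 CPM and 75.2 to 284 CPM. Most of the monocyte sum in CLEC4F- macs was *Ccr2*, with a mean of 717 CPM against at most 28.7 CPM in the other groups. *Chil3* and *Ly6c2* had means of 17.7 and 7.39 CPM against at most 0.268 and 0.269 CPM. *Plac8* was not higher, at 107 CPM against group means of 99.4 to 162 CPM. Sums over the neutrophil, dendritic cell, plasmacytoid dendritic cell, T cell and NK cell lists stayed at 123 CPM or less in every sample, with *Ly6g* at 0 throughout, and those over B cell markers at 19.7 CPM or less outside the CLEC4F- macs, where 1 sample reached 103 CPM. The 4 endothelial markers summed to 296 to 1233 CPM and the 10 hepatocyte markers to 375 to 4017 CPM, and 10 immediate-early and heat-shock genes, which dissociation can induce, to 1050.4 to 14577 CPM. Alignment names in the count files follow 2 naming schemes, whose meaning is not given. SD ResKCs at 24 weeks and WD ResKCs at 12 weeks follow only the first, and every other group mixes them. In bulk samples fewer cells of a type and less RNA per cell cannot be told apart.

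Per kilobase of exon, *Sirpa* and *Lst1* were the highest of the members, with 367 and 364 CPM per kb as means over the 6 groups. *Pilra* followed with 153 CPM per kb and *Cd300a* with 117. *Pilrb1* (84.4), *Pirb* (65.7), *Pilrb2* (65.2), *Klra2* (57.4) and *Lair1* (45.5 CPM per kb) came next, and *Lilrb4a* was the lowest with 10.6. The lengths joined all annotated exons of a gene, from 415 bases in *Lst1* to 7475 in *Lair1*, so that this order depends on the annotation. The ratio of the highest to the lowest group mean was 3.15 in *Lilrb4a*, 2.55 in *Pilrb1*, 2.50 in *Pilrb2* and 2.12 in *Pilra*, and was smallest in *Cd300a* (1.26) and *Sirpa* (1.20). The plot of the members' CPM shows the 3 Pilr genes and *Pirb* stepping down from SD ResKCs to CLEC4F- macs, and *Klra2*, *Lair1* and *Lst1* lowest or near lowest in WD ResKCs at 24 weeks.

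**Figure D1:**
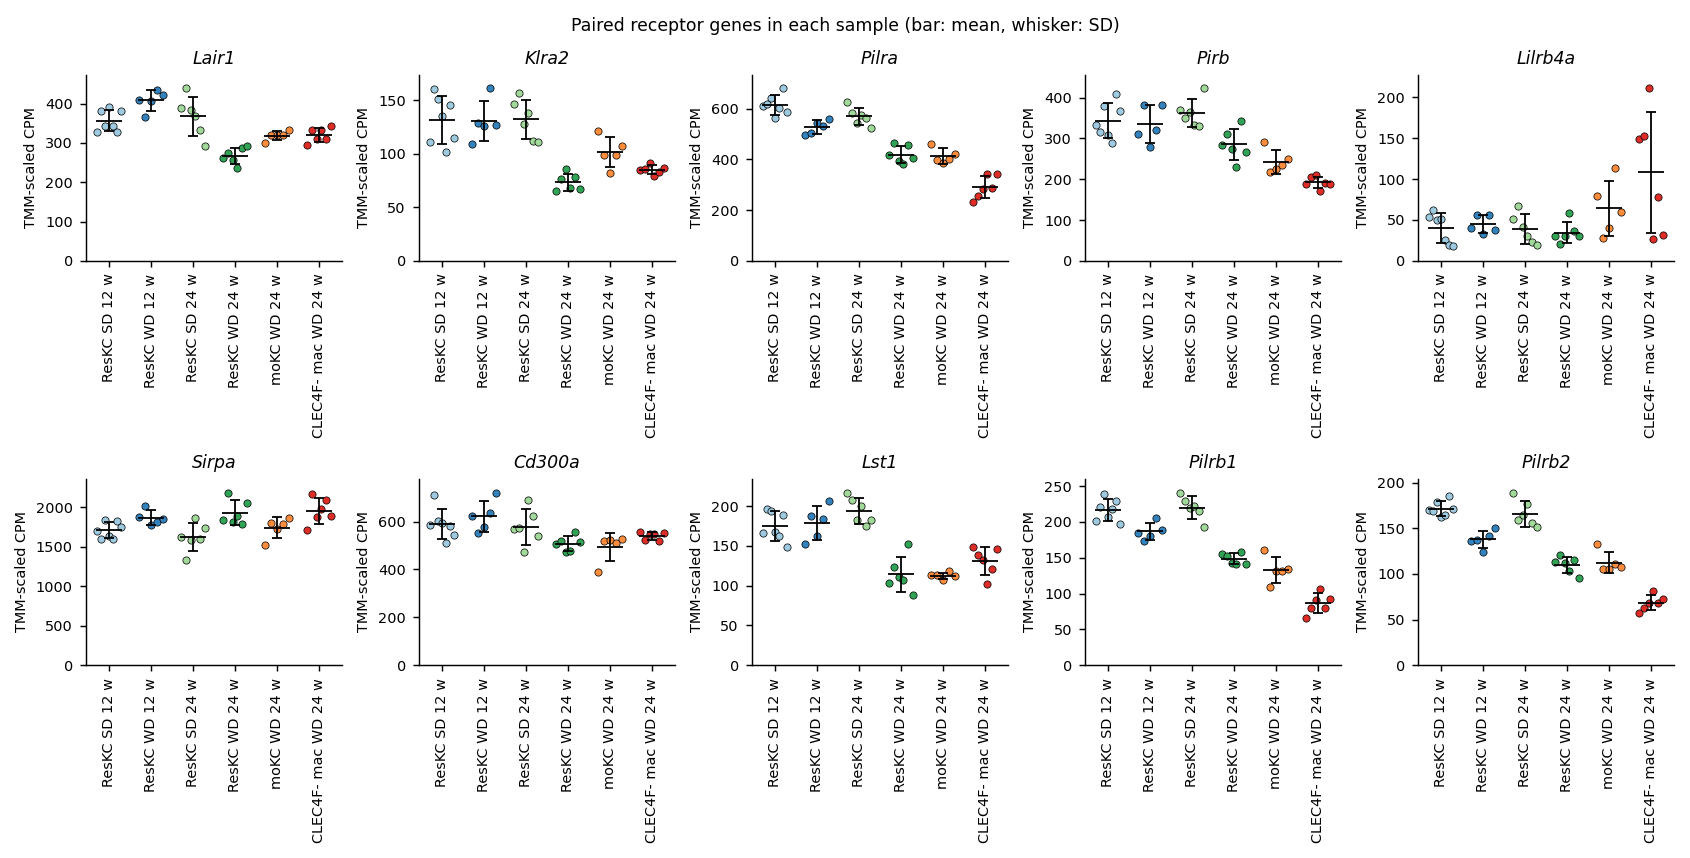
TMM-scaled CPM (y axis, from 0) of the 10 members in every sample of the 6 groups (x axis); points are samples, the bar is the group mean and the whisker the SD. *Klra2* in WD ResKCs at 24 weeks lies between 65.1 and 85.8 CPM, under every SD ResKC sample at 24 weeks, and *Pilra* in CLEC4F- macs lies between 233 and 343 CPM, under every sample of the other groups.

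The first comparison asked how WD feeding altered these genes in ResKCs. At 24 weeks the levels of *Klra2*, *Lst1*, the 3 Pilr genes, *Lair1* and *Pirb* were lower in WD than in SD ResKCs, by 0.34 to 0.85 on the log2 scale, and that of *Sirpa* was higher. With edgeR's quasi-likelihood test at an adjusted p under 0.05, 7 of the 10 members were called lower, where 3.87% of all genes tested were, and 1 was called higher, where 4.84% were. The median log2 fold change over the members was -0.45, against 0.00 over all genes. Since the members were chosen on these values, nothing is read from the counts.

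*Klra2* encodes Ly49B, an ITIM-bearing lectin of the Ly49 family that is found on myeloid cells rather than NK cells. It had 111 CPM in the lowest, 133 CPM in the median and 157 CPM in the highest of the 6 SD ResKC samples at 24 weeks. In the 6 WD samples at 24 weeks the lowest, median and highest values were 65.1, 72.0 and 85.8 CPM. The diets did not overlap, and the fitted log2 fold change was -0.85 ± 0.11 (SE). At 12 weeks *Klra2* had a median of 135 CPM (102 to 160.5) in 7 SD samples, and the 5 WD samples had 109, 129, 126, 161 and 127 CPM. These groups overlapped over nearly their whole range, with a log2 fold change of -0.01 ± 0.11 (SE). moKCs held 121, 98.4, 81.8, 99.2 and 107 CPM and CLEC4F- macs a median of 85.1 CPM (79.3 to 91.7). WD ResKCs at 24 weeks were thus the lowest of the 6 groups, and overlapped with CLEC4F- macs, the next in order.

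*Lst1*, a small transmembrane adaptor with ITIMs, showed the same order of diets. In SD ResKCs at 24 weeks it had a lowest value of 175, a median of 192 and a highest value of 217 CPM. WD ResKCs at 24 weeks had 88.4, 109 and 153 CPM at these points, below all SD samples, with a log2 fold change of -0.77 ± 0.10 (SE). At 12 weeks 7 SD samples spanned 148 to 197 CPM (median 168), the 5 WD samples had 152, 187, 163, 184 and 206 CPM, and the log2 fold change was 0.03 ± 0.10 (SE). In the recruited populations *Lst1* was close to its level in WD ResKCs. moKCs had 113, 113, 107, 118 and 112 CPM (SD 3.89 CPM), and CLEC4F- macs a median of 136 CPM (102 to 149).

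*Lair1* encodes a collagen receptor with ITIMs. SD ResKCs at 24 weeks had a lowest value of 291, a median of 376 and a highest value of 439 CPM, and WD ResKCs had 237, 268 and 292 CPM. The highest WD sample lay just above the lowest SD sample, and the log2 fold change was -0.45 ± 0.07 (SE). At 12 weeks the direction was the opposite. SD ResKCs had a median of 343 CPM (327 to 390.4), WD ResKCs had 410.3, 365, 408, 436 and 422 CPM, and the log2 fold change was 0.20 ± 0.07 (SE), which was not called. WD ResKCs therefore held the highest group mean of *Lair1* at 12 weeks (409 ± 26.7 CPM, SD, n = 5) and the lowest at 24 weeks (268 ± 20.2 CPM, SD, n = 6).

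The difference between the diet effects at 24 and at 12 weeks was called lower for *Klra2*, *Lst1* and *Lair1*, at -0.84 ± 0.15, -0.79 ± 0.14 and -0.65 ± 0.10 (SE) on the log2 scale, and higher for no member, where 0.216% of all genes were called lower and 0.0671% higher. These terms rest on the values by which the members were chosen. For the other 7 members the difference lay between -0.36 (*Pilrb1*) and 0.12 (*Sirpa*) and was not called. At 12 weeks alone no member was called by edgeR, where 0.0149% of all genes were called higher and 0.0224% lower. In the edgeR fit 4 members had an unadjusted p under 0.05, as did 1172 of the 13421 genes. DESeq2 called 1 member, *Pilrb2*, lower, and 44 genes in all, and limma-voom called 0 members and 1 gene in all. Nothing is read from these counts.

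**Figure D2:**
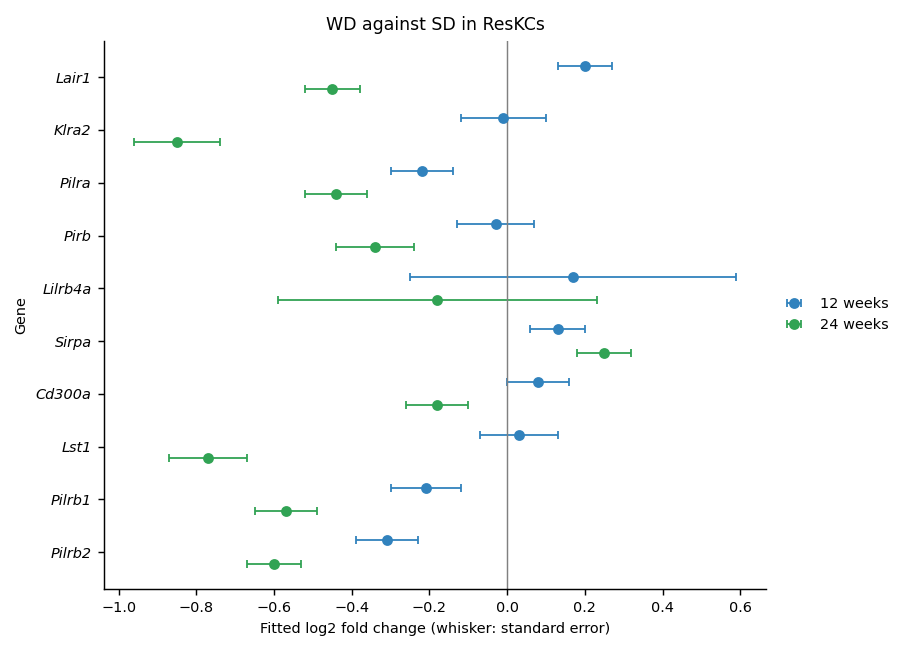
Fitted log2 fold change of WD against SD ResKCs (x axis) for each member (y axis) after 12 and 24 weeks of feeding; whiskers are standard errors. *Klra2*, *Lst1* and *Lair1* lie at -0.01, 0.03 and 0.20 at 12 weeks and at -0.85, -0.77 and -0.45 at 24 weeks, whereas the Pilr genes lie below 0 at both times.

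The Pilr genes were lower in WD ResKCs at both times. *Pilra*, the ITIM receptor of the family, had a median of 570.0 CPM (525 to 626) in SD and 412 CPM (381 to 464) in WD ResKCs at 24 weeks, without overlap, and a log2 fold change of -0.44 ± 0.08 (SE). At 12 weeks the 7 SD samples had a median of 609 CPM (562 to 680.2) and the WD samples 496, 504, 543, 532 and 561 CPM. These did not overlap either, although the highest WD and the lowest SD sample were 561 and 562 CPM, and the log2 fold change of -0.22 ± 0.08 (SE) was not called.

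The activating genes showed the same pattern. *Pilrb1* had a median of 221 CPM (193 to 241) in SD and 148 CPM (141 to 158) in WD ResKCs at 24 weeks, with a fitted log2 fold change of -0.57 ± 0.08 (SE). *Pilrb2* had a median of 162 CPM (151 to 189) in SD and 113 CPM (95.3 to 120.2) in WD ResKCs, a log2 fold change of -0.60 ± 0.07 (SE). Neither gene overlapped between the diets at 24 weeks. At 12 weeks *Pilrb1* differed by -0.21 ± 0.09 on the log2 scale, with overlapping diets. *Pilrb2* differed by -0.31 ± 0.08 (SE) without overlap, with WD samples at 136, 137, 124, 142 and 150.4 CPM against 162 to 185 CPM in SD samples.

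*Pirb* encodes an ITIM receptor for MHC class I. It had a median of 358 CPM (329.5 to 423) in SD and 279.8 CPM (231 to 342) in WD ResKCs at 24 weeks, groups that overlapped, and a log2 fold change of -0.34 ± 0.10 (SE). The call was lost without SD replicate 6 or without WD replicate 4, at a log2 fold change of -0.29 in both cases, and with library size alone in place of TMM factors. At 12 weeks the log2 fold change was -0.03 ± 0.10 (SE).

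*Sirpa*, the receptor for CD47 that restrains phagocytosis, had a median of 1608 CPM (1335 to 1863) in SD and 1865 CPM (1782 to 2185) in WD ResKCs at 24 weeks. The groups overlapped, the log2 fold change was 0.25 ± 0.07 (SE), and the call was lost without SD replicate 2 (0.20), WD replicate 2 (0.21) or WD replicate 6 (0.23) and without a filter on low counts. *Cd300a*, an ITIM receptor for phosphatidylserine and phosphatidylethanolamine on dying cells, had means of 577 ± 74.2 CPM in SD and 508 ± 30.5 CPM (SD, n = 6 each) in WD ResKCs and was not called. *Lilrb4a*, the ITIM receptor also known as gp49B, varied most between samples of one group and was not called, with 19.5 to 67.2 CPM in SD and 20.1 to 58.1 CPM in WD ResKCs.

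Other quantities moved with the diet at 24 weeks. The mean log2 CPM of the 10 immediate-early and heat-shock genes was 8.75 (7.07 to 9.79) in SD and 7.02 (6.00 to 8.31) in WD ResKCs, and that of the 10 hepatocyte markers 6.30 (4.88 to 6.91) and 7.09 (6.33 to 8.18). With the immediate-early mean as a covariate 6 members were called lower and none higher, *Pirb* and *Sirpa* being lost, and with the hepatocyte mean the counts were 7 lower and 1 higher as before. With the naming scheme as a covariate the counts were also 6 lower and none higher. The share of all genes called with these covariates is not given here, so that nothing is read from the counts. The 4 endothelial markers, all over the filter, summed to 511 to 1233 CPM in SD and 359 to 717 CPM in WD ResKCs, with mean levels of 145 and 65.1 CPM in *Clec4g*, 156 and 70.7 CPM in *Kdr* and 115 and 62.9 CPM in *Ptprb*, and similar ones in *Stab2* (359 and 345 CPM). Of the 6 Kupffer cell markers, *Vsig4* had 3659.8 to 4117 CPM in SD and 2772 to 3441 CPM in WD ResKCs, without overlap, and *Timd4* means of 1027 and 732 CPM. None of these 10 markers was called by edgeR, the lowest adjusted p being 0.0544 (*Clec4g*). The fit takes 1 estimate of the spread per gene from all 6 groups. The SD of *Vsig4* was 4.58% and 7.64% of its mean in SD-fed and WD-fed ResKCs and 61.4% in CLEC4F- macs. That of *Timd4* was 8.67%, 15.8% and, in moKCs, 92.3%. A missing call therefore does not show that these markers were unchanged by the diet. The part of the 10 markers in the member values was not tested. Within the first scheme, 3 WD against 6 SD samples, the difference in mean log2 CPM was -0.80 in *Klra2*, -0.79 in *Lst1*, -0.46 in *Lair1*, -0.43 in *Pilra*, -0.55 in *Pilrb1*, -0.52 in *Pilrb2*, -0.31 in *Pirb* and 0.26 in *Sirpa*. At 12 weeks it was -0.10 in *Klra2*, -0.06 in *Lst1* and 0.22 in *Lair1*, for 5 WD against 3 SD samples.

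The second comparison asked how the 3 populations of WD-fed mice at 24 weeks differed. CLEC4F- macs had lower levels of *Pilrb1*, *Pilrb2*, *Pirb* and *Pilra* than ResKCs and than moKCs, and a higher level of *Lair1* than ResKCs. *Lilrb4a* was higher than in ResKCs in the samples of the first naming scheme, with overlap over all samples. Against ResKCs 4 members were called lower, where 17.0% of all genes were, and 2 higher, where 16.1% were. Against moKCs 4 were called lower and none higher, where 9.34% and 7.09% of all genes were. moKCs and ResKCs differed least, with 1 member, *Klra2*, called higher and none lower, where 0.991% and 2.00% of all genes were. With library sizes alone, without TMM factors, the median of all genes in CLEC4F- macs moved up by 0.12 on the log2 scale against ResKCs and by 0.08 against moKCs. In this setting 5 members were called higher and 4 lower against ResKCs and 3 higher and 3 lower against moKCs, where *Pirb* was no longer called. The percentages above belong to the fit with TMM factors, and the share of all genes called with library sizes alone is not given here. Members were chosen on these values too, so that nothing is read from the counts. The comparisons share samples, so that their values are given side by side only.

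**Figure D3:**
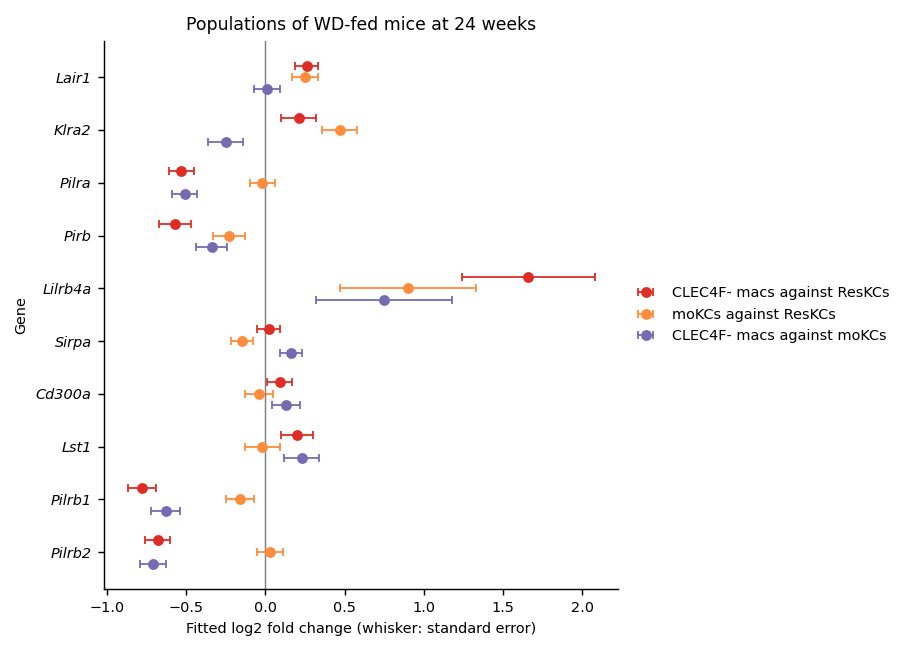
Fitted log2 fold change (x axis) of each member (y axis) in 3 comparisons between the populations of WD-fed mice (24 weeks of feeding); whiskers are standard errors. The 3 Pilr genes lie between -0.78 and -0.51 in CLEC4F- macs against either population and between -0.16 and 0.03 in moKCs against ResKCs, and *Lilrb4a* has the widest standard errors, 0.42 to 0.43.

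*Pilrb1* had a lowest value of 66.4, a median of 85.8 and a highest value of 107 CPM in CLEC4F- macs. moKCs had 160.5, 109.8, 131, 131 and 134 CPM. CLEC4F- macs thus lay below all moKC samples and all WD ResKC samples, with log2 fold changes of -0.63 ± 0.09 and -0.78 ± 0.09 (SE). *Pilrb2* had a median of 68.2 CPM (57.1 to 81.7) in CLEC4F- macs and 133, 105, 105, 111 and 108 CPM in moKCs, with log2 fold changes of -0.71 ± 0.08 against moKCs and -0.68 ± 0.08 (SE) against ResKCs, again without overlap. *Pilra* had a median of 284 CPM (233 to 343) in CLEC4F- macs and 461, 398, 384, 402 and 421 CPM in moKCs, with log2 fold changes of -0.51 ± 0.08 and -0.53 ± 0.08 (SE). CLEC4F- macs were the lowest group for all 3 genes, and moKCs and WD ResKCs at 24 weeks, the next in either order, overlapped. Within the naming schemes the differences in mean log2 CPM from ResKCs were -0.72 and -0.36 in *Pilra*, -0.93 and -0.66 in *Pilrb1* and -0.88 and -0.49 in *Pilrb2* (first and second scheme, 3 against 3 samples each).

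Because activating and inhibitory PILR share a ligand-binding fold and a gene cluster, the ratio of *Pilra* to the sum of *Pilrb1* and *Pilrb2*, each in CPM per kb, was taken in each sample. It was near 1 in ResKCs, with mean log2 values of 0.01 ± 0.04 (SD, n = 7) and 0.04 ± 0.09 (SD, n = 5) in SD and WD ResKCs at 12 weeks. At 24 weeks it was -0.10 ± 0.04 in SD and 0.04 ± 0.07 in WD ResKCs (SD, n = 6 each), and the highest SD sample, at -0.05, lay just below the lowest WD sample, at -0.04. moKCs had 0.10 ± 0.09 (SD, n = 5) and CLEC4F- macs 0.25 ± 0.08 (SD, n = 6), with samples from 0.16 to 0.39, so that against WD ResKCs the activating genes were lower by more than the inhibitory gene. The highest moKC sample reached 0.23 and the highest WD ResKC sample at 12 weeks 0.17, within the range of CLEC4F- macs. No test was made, since the ratio rests on the values by which the members were chosen. The level of the ratio also depends on the exon lengths, 3090 bases in *Pilra* and 1957 in each Pilrb gene, and on how shared reads were counted. A ratio near 1 therefore does not show equal numbers of transcripts.

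**Figure D4:**
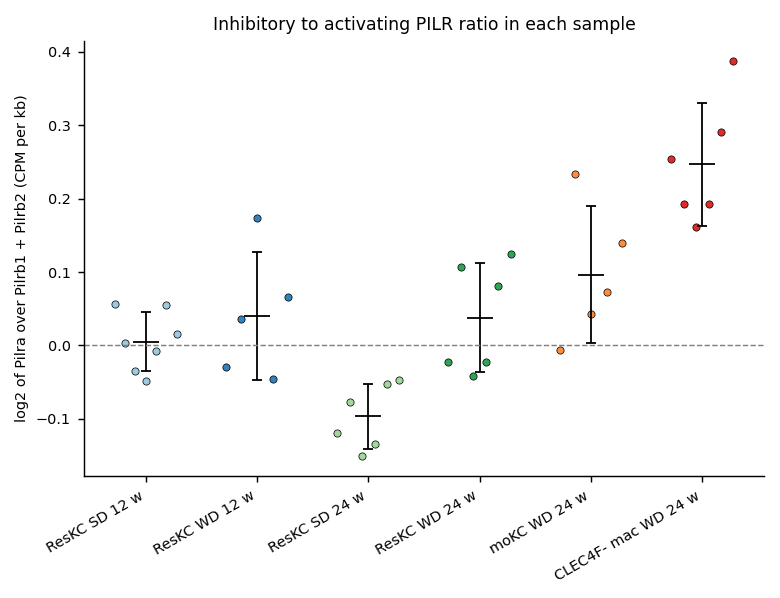
Log2 ratio of *Pilra* to the sum of *Pilrb1* and *Pilrb2*, each in CPM per kb of exon (y axis), in every sample of the 6 groups (x axis). The bar is the group mean and the whisker the SD. The line at 0 marks equal CPM per kb, which depends on the exon lengths used. The 6 CLEC4F- mac samples lie between 0.16 and 0.39, and the SD ResKC samples at 24 weeks between -0.15 and -0.05.

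*Pirb* was also lowest in CLEC4F- macs. It had 188, 205, 210.3, 171, 190.4 and 189.5 CPM in the 6 CLEC4F- mac samples and 292, 218, 224, 234 and 249 CPM in the moKC samples, without overlap. The log2 fold changes were -0.57 ± 0.10 (SE) in CLEC4F- macs against ResKCs and -0.34 ± 0.10 (SE) against moKCs, and the latter call was lost without moKC replicate 1, at -0.27, and with library size alone. moKCs against ResKCs had -0.23 ± 0.10 (SE), not called. *Pira2*, an activating PIR gene with which *Pirb* shares sequence, is given with the related receptors.

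*Lair1* had a lowest value of 294, a median of 322 and a highest value of 343 CPM in CLEC4F- macs, above the 237 to 292 CPM of WD ResKCs. moKCs, with 301, 319, 321, 321 and 332 CPM, also lay above all WD ResKC samples. The log2 fold changes were 0.26 ± 0.07 and 0.25 ± 0.08 (SE), of which the former was called and the latter was not, except without ResKC replicate 6 (0.27), with DESeq2, with library size alone and with the immediate-early covariate. CLEC4F- macs and moKCs were at the same level of *Lair1*, with a log2 fold change of 0.01 ± 0.08 (SE). *Klra2* in moKCs exceeded its level in WD ResKCs by 0.47 ± 0.11 (SE) on the log2 scale, with 1 moKC sample, at 81.8 CPM, within the ResKC range, and the call was lost without moKC replicate 1 (0.39), the sample with the highest value. The group means of *Lair1* and *Klra2* in moKCs and CLEC4F- macs lay between those of WD and SD ResKCs at 24 weeks, although the *Lair1* samples were all within the SD range and *Klra2* in CLEC4F- macs overlapped with WD ResKCs.

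*Lilrb4a* was the member that differed most between samples. CLEC4F- macs had 149, 153 and 211 CPM in the 3 samples of the first naming scheme and 26.8, 78.3 and 31.4 CPM in those of the second. WD ResKCs at 24 weeks had 30.2, 20.1 and 30.5 CPM in the first scheme and 58.1, 36.7 and 30.7 CPM in the second. The log2 fold change over all samples was 1.66 ± 0.42 (SE) and was called, but the groups overlapped. Within the first scheme the difference in mean log2 CPM was 2.67 and within the second it was 0.00, so that the higher level in CLEC4F- macs was seen in the first scheme alone. Against moKCs, which had 79.7, 28.5, 40.6, 114 and 59.3 CPM, the difference was 1.82 in the first and -0.68 in the second scheme. SD ResKCs at 12 weeks, with 54.0, 62.1 and 49.4 CPM in the first and 51.5, 25.8, 19.8 and 17.7 CPM in the second scheme, also differed between schemes in 3 of 4 samples. SD ResKCs at 24 weeks, all in the first scheme, spread as widely, with 51.0, 67.2, 41.3, 30.9, 23.0 and 19.5 CPM in replicates 1 to 6. *Lilrb4a* thus also varied within 1 scheme, and what sets its level was not tested. Within groups, deviations of *Lilrb4a* correlated at r = 0.47 with those of the immediate-early mean over 35 samples, which share library and depth. With either the scheme or that mean as a covariate the gene was still called higher than in ResKCs. The scheme covariate is 1 term shared by all groups and cannot take up a difference seen in the first scheme alone, so that nothing is read from that call.

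*Sirpa*, *Cd300a* and *Lst1* were not called between the populations with TMM factors and all samples. *Sirpa* spanned 1782 to 2185 CPM in WD ResKCs, 1516 to 1869 CPM in moKCs and 1710.3 to 2165 CPM in CLEC4F- macs. *Cd300a* spanned 471 to 556 CPM in WD ResKCs and 518 to 558 CPM in CLEC4F- macs, and in moKCs replicate 1 stood apart at 388 CPM from 509 to 528 CPM in the others. *Lst1* in CLEC4F- macs against ResKCs had a log2 fold change of 0.20 ± 0.10 (SE), not called, except without ResKC replicate 5 (0.31) or CLEC4F- mac replicate 4 (0.27). Without the latter it was also called higher than in moKCs (0.29). Neighbouring groups overlapped in every step of the order of *Sirpa*, *Cd300a*, *Lst1*, *Klra2* and *Lilrb4a*.

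CLEC4F- macs also differed from the other populations in Kupffer cell markers and in the monocyte markers other than *Plac8*, as given above, and *Clec4f* ranged from 294 to 5488 CPM among their samples. The part of mixed cells in the member values was not tested. The immediate-early mean was 8.06 (7.14 to 9.25) in CLEC4F- macs against 7.02 in WD ResKCs. With it as a covariate the counts of members, 2 higher and 4 lower against ResKCs, were as before, and the share of all genes called in that fit is not given here.

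Among the members the Pilr genes formed the tightest group. Deviations from group means in log2 CPM correlated at r = 0.80 for each of the 3 pairs of *Pilra*, *Pilrb1* and *Pilrb2* over 35 samples, and *Klra2* with *Lst1* at r = 0.58. These were the 4 pairs of 45 above 0.5, while 13 pairs were below 0 and the median was 0.16. Over all samples, group differences included, the median was 0.44. The points share libraries and, for the Pilr genes, some sequence, and no test was made.

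The genes most like each member across the 35 samples, by Pearson's r of log2 CPM over all genes tested, were other members for the Pilr genes, with *Pilra* and *Pilrb2* at r = 0.980, *Pilrb1* and *Pilrb2* at 0.978, and *St3gal4* (r = 0.941, with *Pilra*), *Aldh2* (0.957, with *Pilrb1*) and *Adgre4* (0.949, with *Pilrb2*) next. *Pirb* had *Plbd1* (r = 0.930) and *Vasp* (0.928) among its closest. *Klra2* was closest to *Psmb9* (0.882), a subunit of the immunoproteasome, *Gmfg* (0.870) and *Tmem243* (0.827), and *Lst1* to *Gmfg* (0.889), *Klra2* (0.826) and *Cmtr2* (0.821). *Lair1* was closest to *Hprt* (0.816), *Churc1* (0.798) and *Mtfp1* (0.795). *Lilrb4a* was closest to *Neat1* (0.900), a nuclear long non-coding RNA, *Ccnl1* (0.887) and *H2-K2* (0.872). *Sirpa* had its nearest in *Plxdc2* (0.782), *Asph* (0.725) and *Cerk* (0.725), and *Cd300a* in *Cd300c2* (0.773), its neighbour in the CD300 family, *Isoc2b* (0.770) and *Sdhb* (0.743).

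Related receptors, 78 genes of the same and neighbouring families listed by family and not by level, were tested beside the members. The list was made with earlier results of these data known, so that its counts are no independent support for the members' values. Transcript words shared with other genes were counted for the members only. *Pira2* is among the genes that share words with *Pirb*, as given above. How reads were split between similar genes was not tested for the related receptors or for the signalling partners and ligands. Their levels, fold changes and adjusted p are given without that check. Of the 78 genes, 64 are in the files and 41 passed the filter. In CLEC4F- macs against ResKCs 15 rose and 12 fell, where 16.1% and 17.0% of all genes did, with a median log2 fold change of 0.28 against 0.02 over all genes. Among those that rose were genes at low levels, *Klra17* (Ly49Q, an ITIM receptor) at 4.57 ± 0.66 (SE; edgeR's quasi-likelihood test, adjusted p = 1.37e-06) and *Siglecg*, an inhibitory Siglec known from B cells, at 3.87 ± 1.02 (adjusted p = 0.00331). *Klra17* had 2.34 to 9.85 CPM in CLEC4F- macs and at most 0.580 CPM in WD ResKCs. *Siglecg* had 10.9 CPM in CLEC4F- mac replicate 1, the sample in which the 3 B cell markers summed to 103 CPM, and 0.807 to 2.26 CPM in the other 5. *Sirpb1a*, an activating relative of *Sirpa* that pairs with DAP12, rose by 3.24 ± 0.28 (adjusted p = 1.59e-10), from a mean of 5.06 CPM in ResKCs to 47.8 CPM.

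The strongest falls were in *Pira2*, which encodes an activating partner of PIR-B, at -2.45 ± 0.22 (SE, adjusted p = 2.80e-10, edgeR), *Cd300e*, an activating CD300 receptor, at -1.60 ± 0.21 (adjusted p = 2.85e-07), and *Siglece*, an inhibitory Siglec, at -1.54 ± 0.19 (adjusted p = 8.88e-08). *Pira2* had 9.36 to 26.5 CPM in CLEC4F- macs and 69.5 to 115 CPM in WD ResKCs. Against moKCs 8 related receptors rose and 9 fell (7.09% and 9.34% of all genes), with the same 3 genes lowest (*Pira2* -1.57, *Cd300e* -1.43 and *Siglece* -1.24) and *Sirpb1a* (2.14) and *Klra17* (2.24) among the highest, beside *Pdcd1* (3.06 ± 0.92, adjusted p = 0.0207), which encodes PD-1 and had 0.888 to 2.98 CPM in CLEC4F- macs. The call of *Pdcd1* was lost without moKC replicate 1, 2, 4 or 5 (adjusted p up to 0.0557), with DESeq2 and without a filter.

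In moKCs against ResKCs 4 related receptors rose and 2 fell (0.991% and 2.00% of all genes), and this count depended on single samples: it was 3 without moKC replicate 2, 2 without replicate 4 and 1 without replicate 5. *Cd300lf*, an inhibitory CD300 receptor, fell by 0.81 on the log2 scale (SE 0.18, adjusted p = 0.00634, edgeR) and kept its call in all 11 fits without 1 sample. *Sirpb1b* (0.86 ± 0.21, adjusted p = 0.0151), *Sirpb1a* (1.10 ± 0.28, adjusted p = 0.0219), *Klra17* (2.33 ± 0.66, adjusted p = 0.0468) and *Pira2* (-0.88 ± 0.22, adjusted p = 0.0198) lost theirs in 2, 5, 9 and 4 of these 11 fits, at adjusted p of up to 0.0577, 0.0803, 0.104 and 0.0797. With limma-voom neither *Sirpb1a* nor *Klra17* was called, and *Klra17* was also not called without a filter or with a replicate block.

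In WD against SD ResKCs at 24 weeks 5 related receptors rose and 7 fell (4.84% and 3.87% of all genes), and 7 in all were called without WD replicate 4 or without WD replicate 6. Their median log2 fold change was -0.19, against 0.00 over all genes. *Trem2*, an activating DAP12-coupled receptor for lipids, rose by 1.58 ± 0.34 (SE, adjusted p = 0.00316, edgeR) from 18.1 to 61.8 CPM in SD to 69.2 to 216 CPM in WD samples. *Cd300e* (-0.76 ± 0.21, adjusted p = 0.0187), *Clec4a1* (-0.66 ± 0.16, adjusted p = 0.00823) and *Pecam1* (-0.58 ± 0.17, adjusted p = 0.0249), an ITIM-bearing adhesion receptor that endothelium also expresses, fell, and none of these 3 was called with the immediate-early mean as a covariate, at adjusted p of 0.0706 to 0.108. Endothelial markers were lower in the same WD samples, as given above, and their part in the fall of *Pecam1* was not tested. *Cd300e* lost its call without WD replicate 6 (adjusted p = 0.0529), and *Pecam1* without SD replicate 6, WD replicate 4 or WD replicate 6, at adjusted p of up to 0.0703. *Klra3*, an NK cell Ly49 receptor, was called higher but had no count in any of the 6 SD samples and 2, 7, 3, 45, 0 and 7 counts in the WD samples. Against 3 counts per library it was at least 3.64-fold higher, or at least 1.32-fold without WD replicate 4, which held 45 of these counts. Its adjusted p was 0.00429 with edgeR and 0.170 with limma-voom, and the 3 NK cell markers summed to 0.0702 to 0.602 CPM in SD and 0.351 to 1.73 CPM in WD samples. *Pdcd1*, also without counts in SD samples, had 22 counts in all WD samples and lost its call in 10 of 12 fits without 1 sample (adjusted p 0.0378 with all samples) and was called in 4 of 8 alternatives. At 12 weeks and in the difference between the diet effects no related receptor was called by edgeR, with 4 and 10 at an unadjusted p under 0.05, where DESeq2 called 0 and 3. Over all genes these numbers were 1172 and 1886 at edgeR's unadjusted p under 0.05, and 44 and 192 with DESeq2. Without WD replicate 2 at 12 weeks edgeR called 1 related receptor in the difference.

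**Figure D5:**
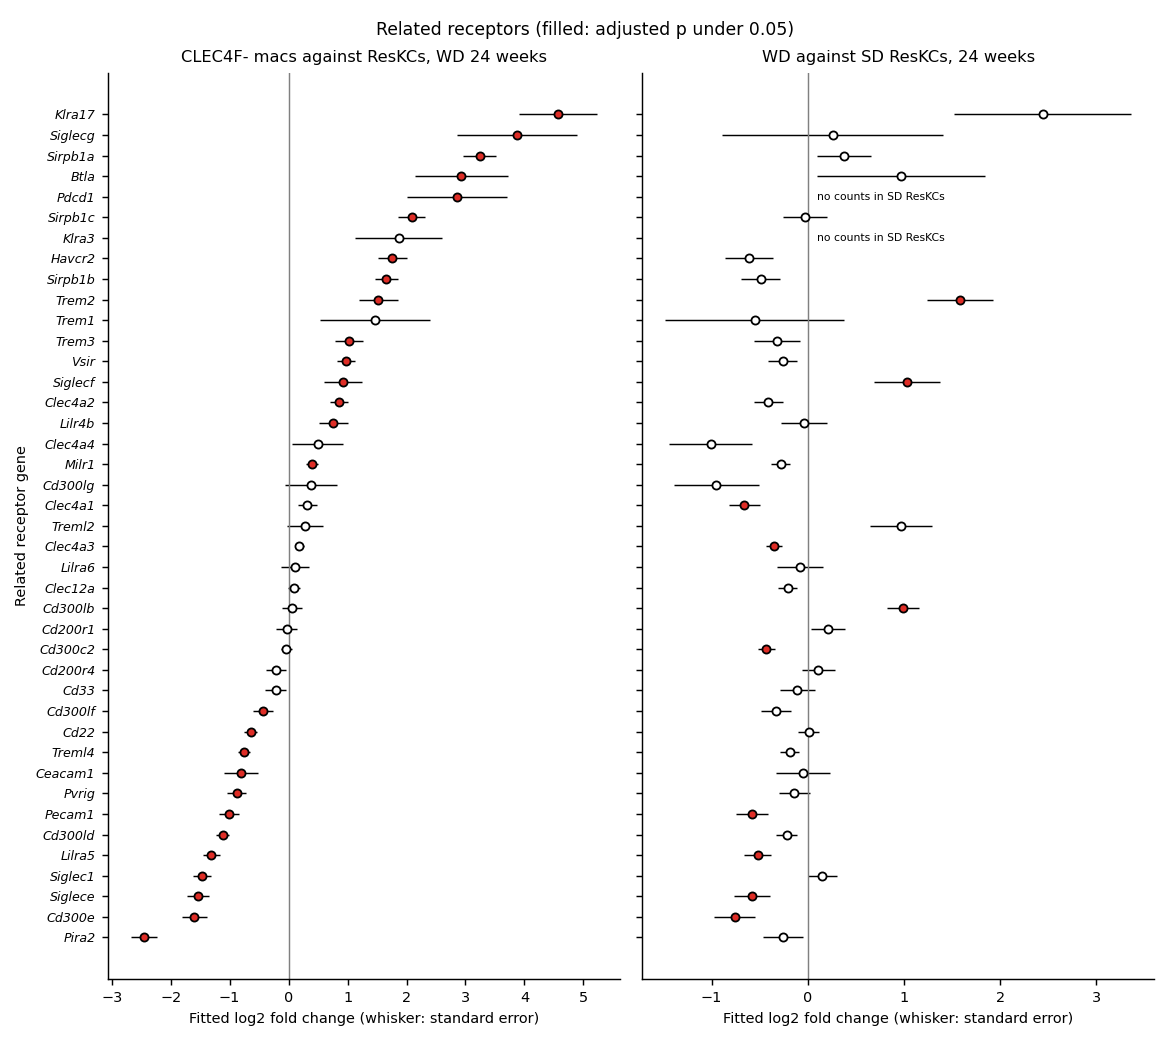
Fitted log2 fold change (x axes) of the 41 related receptors over the filter (y axis, ordered by the left panel), in CLEC4F- macs against ResKCs (left) and in WD against SD ResKCs at 24 weeks (right); whiskers are standard errors and filled points have an adjusted p under 0.05. In the left panel 15 filled points lie above 0 and 12 below it; *Klra3* and *Pdcd1*, without counts in SD ResKCs, have no point in the right panel.

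The 27 signalling partners and ligands were also listed with earlier results of these data known. Of these, 26 are in the files and were tested. In CLEC4F- macs against ResKCs 3 rose and 10 fell (16.1% and 17.0% of all genes), with a median log2 fold change of -0.16. With library size alone 6 rose and 10 fell. *C1qc* and *C1qa*, complement C1q chains that bind LAIR-1, fell by 0.89 and 0.86 on the log2 scale (SE 0.11 for both, adjusted p = 1.01e-07 and 2.27e-07, edgeR), and *Hcst*, the adaptor DAP10, by 0.65 (SE 0.12, adjusted p = 4.32e-05). The collagen genes *Col1a1* and *Col3a1*, also LAIR-1 ligands, rose by 2.16 ± 0.75 (adjusted p = 0.0239) and 1.69 ± 0.39 (adjusted p = 0.000865), at 3.23 to 9.76 CPM and 16.2 to 68.3 CPM in CLEC4F- macs. *Col1a1* lost its call without ResKC replicate 1 or 2, at an adjusted p of up to 0.0549. The marker lists hold no genes of hepatic stellate cells or fibroblasts, and the part of RNA from such cells in the collagen values was not tested. *Itgav*, an integrin chain, rose by 0.39 ± 0.12 (adjusted p = 0.0111). Against moKCs 1 rose, *Fn1*, which encodes fibronectin (1.48 ± 0.48, adjusted p = 0.0302, lost without 6 of the 11 compared samples, at an adjusted p of up to 0.0946), and 8 fell (7.09% and 9.34% of all genes), with *C1qa* (-0.72), *C1qc* (-0.69) and *C1qb* (-0.49) lowest.

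In moKCs against ResKCs 2 partners rose and 1 fell (0.991% and 2.00% of all genes), and none was left without moKC replicate 2 or replicate 4. *Fn1* fell by 1.91 (SE 0.49, adjusted p = 0.0225, edgeR), *Col3a1* rose by 1.44 ± 0.40 (adjusted p = 0.0413) and *Apoe* by 0.53 ± 0.14 (adjusted p = 0.0330), and they lost their calls without 5, 9 and 6 of the 11 compared samples, at adjusted p of up to 0.0950, 0.109 and 0.126. *Col3a1* and *Apoe* were also not called without a filter, nor *Col3a1* with the immediate-early covariate. The part of RNA from stellate cells or fibroblasts in *Col3a1* was not tested here either. In the count of partners, 1 was left without ResKC replicate 1, 2 or 4 and without moKC replicate 3 or 5.

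In WD against SD ResKCs at 24 weeks 2 partners rose and 8 fell (4.84% and 3.87% of all genes), or 6 in all without SD replicate 4. *Fn1* rose by 2.49 ± 0.47 (SE, adjusted p = 0.000931, edgeR) and *Syk*, the kinase that activating adaptors recruit, by 0.25 ± 0.08 (adjusted p = 0.0494), a call lost without 9 of the 12 compared samples, at an adjusted p of up to 0.125, and made in 3 of 8 alternatives. *B2m* and *H2-D1*, which encode the light chain and a heavy chain of MHC class I, the ligand of PIR-B, fell by 0.44 (SE 0.08, adjusted p = 0.000439) and 0.40 (SE 0.07, adjusted p = 0.000614), and *Hcst* fell by 0.53 (SE 0.12, adjusted p = 0.00410). *Tyrobp* and *Fcer1g*, the adaptors of the activating receptors and named here after their values were seen, fell by 0.31 (SE 0.09, adjusted p = 0.0251) and 0.28 (SE 0.08, adjusted p = 0.0292). *Tyrobp* lost its call without SD replicate 1, 2 or 4 or WD replicate 2 or 3 (adjusted p up to 0.0655) and *Fcer1g* without SD replicate 1 or 4 or WD replicate 3, 4 or 6 (up to 0.0678). Neither was called with the immediate-early covariate (0.0896 and 0.0777), the hepatocyte covariate or library size alone, nor *Fcer1g* without a filter. The phosphatase genes *Ptpn6*, *Ptpn11* and *Inpp5d*, chosen likewise, lay at -0.12, 0.04 and -0.09 and were not called. At 12 weeks and in the difference between diet effects no partner was called by edgeR, with 2 and 7 at an unadjusted p under 0.05, where DESeq2 called 0 and 1 and limma-voom 0 and 0. Over all genes the numbers were 1172 and 1886 at edgeR's unadjusted p under 0.05, 44 and 192 with DESeq2 and 1 and 37 with limma-voom.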

How the data were processed

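Bulk RNA-seq of 35 samples in 6 groups, by population, diet and weeks of feeding in titles and descriptions, was used. TruSeq libraries were sequenced as 75-base single reads, and per the labels and methods the authors mapped them to mm10 with HISAT2 2.2.0 and deposited featureCounts 2.0.0 counts per gene symbol, unfiltered and not normalized. Annotation and strand setting are not given in the sources used here.

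The members and gene lists were chosen with earlier results of these data known. A filter of 1 CPM in 5 samples left 13421 genes, which were fitted with edgeR 4.0.16 in R 4.3.3 (TMM factors, quasi-likelihood test, 6 group means over all samples), and Benjamini-Hochberg adjustment ran over all genes. A gene was called at an adjusted p under 0.05, without a fold limit. Standard errors were derived from the fold change and its F statistic. CPM are TMM-scaled, and log2 CPM has a prior count of 2. The script was tested on simulated data with known changes. Named were all members, per comparison and list up to 3 called genes at either end of the fold changes, and the 3 genes most correlated with each member, of which 1 is not reported here. Alternatives were DESeq2 1.42.0, a replicate block, library size alone in place of TMM, no filter, limma-voom (limma 3.58.1), covariates for naming scheme, immediate-early and hepatocyte genes, an absolute log2 fold change over 1, and each sample left out. Positions and exon lengths are from GENCODE M21. Floors cover counting error only. No pair of samples of a group agreed within counting noise.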

Additional observations from a re-analysis of the deposited data

Results flagged for a closer look

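Of 60 sets of member values, 1 per gene and group, 2 held a sample that stood apart from the rest of its group by Dixon's ratio, which chance gives in about 1 of 20 sets. Both were moKC replicate 1, with 133 CPM of *Pilrb2* against 105 to 111 CPM in the other 4 samples, and 388 CPM of *Cd300a* against 509 to 528 CPM. Without this sample *Klra2* in moKCs against ResKCs and *Pirb* in CLEC4F- macs against moKCs were no longer called. The diet effect at 24 weeks differed from that at 12 weeks, by the interaction term of the edgeR fit, for *Klra2* (-0.84 on the log2 scale), *Lair1* (-0.65) and *Lst1* (-0.79). These differences rest on values by which the members were chosen. WD samples at 12 weeks and SD samples at 24 weeks follow only the first naming scheme. The cause was not tested.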

How the results depend on the processing

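Of the counts of called members, related receptors and partners under the alternatives, 370 stayed within 1.5 times the reported count and 38 did not, and no fold change of a called member or named gene turned sign. With an absolute log2 fold change over 1 asked for, the member counts were 1 in CLEC4F- macs against ResKCs and 0 in the other comparisons, those of related receptors 17, 2 (moKCs against ResKCs), 11 (CLEC4F- macs against moKCs) and 4 (diet at 24 weeks), and those of partners 2, 1 (CLEC4F- macs against moKCs) and 1 (diet at 24 weeks), by construction of the limit. In moKCs against ResKCs 2 members were called with DESeq2, with library size alone and with the immediate-early covariate, and 0 to 2 without 1 sample; 1 partner was called without a filter. DESeq2 called 1 member at 12 weeks and, in the difference between diet effects, 3 related receptors and 1 partner, and the naming scheme covariate 1 related receptor there. With the immediate-early covariate 6 related receptors and 5 partners were called in the diet comparison at 24 weeks. Without 1 sample the counts of related receptors were 1 to 8 in moKCs against ResKCs, 7 to 11 for the diet at 24 weeks and 0 to 1 for the difference between diet effects, and those of partners 0 to 3 in moKCs against ResKCs and 6 to 9 for the diet at 24 weeks. Apart from those made by the fold limit, the cause of these changes was not tested. Over all genes DESeq2 called 576 in moKCs against ResKCs, 44 at 12 weeks and 192 in the difference between diet effects. For the covariates, library size alone, no filter and the fits without 1 sample the share of all genes called is not given here, so that nothing is read from those counts. With library size alone the log2 fold changes of *Lair1* and *Sirpa* in CLEC4F- macs against ResKCs were 0.38 and 0.14. Replicate numbers are shared by the labels of several groups. Deviations of same-numbered samples of WD-fed mice correlated at 0.024 to 0.263 (mean 0.117) in CLEC4F- macs and ResKCs. They correlated at -0.157 to 0.149 in moKCs and ResKCs and at -0.118 to 0.095 in CLEC4F- macs and moKCs. Between the diets, where mice differ, the range was -0.357 to 0.13. The labels do not name the mouse, so that these values cannot decide whether populations came from the same livers. The numbers were not taken to pair samples. With a replicate block the member counts were 6, 1, 4, 8, 0 and 3, as without it, and 27 related receptors were called in CLEC4F- macs against ResKCs. Depth limits the related receptors more than the members: 3 counts are 0.198 to 0.259 CPM before TMM scaling, close to the levels of *Klra3*, *Klra17*, *Siglecg* and *Pdcd1* in ResKCs.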
